A study of Bos taurus with 15 samples.

Results

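The RNA of the post region of engineered meniscal tissues was compared with that of their middle region, pooled over the 2 kinds of mold in which the tissues were cast. The comparison used 12 of the 15 libraries in the study: 6 post libraries, 3 from anchored and 3 from unanchored tissue, and 6 middle libraries, again 3 from anchored and 3 from unanchored tissue. The 3 libraries of cells in collagen that was not molded took no part in it and entered only an alternative fit. All 11730 genes that passed a filter on low counts were tested, and what is described is the region effect that both mold types share.

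All tissues held bovine meniscal fibrochondrocytes and were harvested on day 28. Growth medium with 10% serum was given for 3 days and a chondrogenic medium for the next 25 days, with dexamethasone, ascorbic acid (50 µg/ml) and the growth factor TGF-β3 (10 ng/ml), so every group, post and middle alike, had received all of these agents. Anchored tissues were cast in 3D-printed molds with post anchors and unanchored tissues in molds without them, and both were cut into a post and a middle region, each of which was dissected further into pieces before RNA extraction. The labels say neither from how many animals the cells came nor whether the replicates of a group are separate tissues, so a p-value here reflects nothing but library-to-library spread, which may be technical.

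The meniscus is a fibrocartilage: its cells build a scaffold of type I collagen, as in ligament, and add aggrecan, type II collagen and other cartilage components in the zones that carry compression. Lubricin, encoded by PRG4, coats its surfaces, and lysyl oxidases crosslink its collagen and elastin. At its horns the tissue passes into ligamentous attachments that anchor it to bone, and tension there is held to favour aligned, fibrous matrix. In bulk RNA, fewer cells of a type and less RNA per cell cannot be told apart.

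Library totals ran from 4970210 to 7415700 counts in the post region and from 2986940 to 7287670 counts in the middle region. Anchored middle library 2 was the shallowest. In a principal component analysis of the 12 libraries, the first component (25.5% of the variance) held it away from the rest: it scored 39.9, and no other library scored above 10.1. On the second component (18.5%) the post libraries scored 1.70 to 16.9 and 5 middle libraries scored -17.5 to -8.49, while anchored middle library 2 scored 18.3, on the side of the post libraries. Results are therefore also given without it where it changes them. Over all 12 libraries, under 10 counts were found for 6 of 13 genes listed for endothelium, 7 of 16 for leukocytes and macrophages, 7 of 10 for Schwann cells and nerve and 7 of 13 for skeletal muscle, among them endothelial PECAM1 (7), Schwann-cell SOX10 (1) and muscle CKM (4), while the pan-leukocyte gene PTPRC had 19. Other markers were present: endothelial ERG had 5304 counts, leukocyte LAPTM5 591 and muscle DES 652. In the Schwann and nerve list S100B had 26728.5 counts and NCAM1 616. The muscle actin ACTA1, at a few CPM and with 95.8% of its counts in values that are not whole, rose by 1.04 on the log2 scale (adjusted p = 0.0267), a call lost without anchored post library 3, unanchored post library 2 or 3, anchored middle library 1 or 3 or unanchored middle library 1 (adjusted p from 0.0533 to 0.0801). The part of these cell types in the gene results was not tested. SOX9, the transcription factor that specifies cartilage cells, was present in every library, at 115 to 138 CPM in post and 110 to 147 CPM in middle libraries.

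Many matrix genes fell in the post region, and some genes of protein turnover and redox control rose. The insulin-like growth factor carrier IGFBP3 and the cartilage matrix protein COMP fell, with means of 628 ± 105 and 657 ± 151 CPM in post libraries, against 1277 ± 96.6 and 1806 ± 818 CPM in middle libraries (SD, n = 6 each). The nuclear lamina protein LMNB1 and the ferritin heavy chain FTH1 were among those that rose. CPM here is a library's count on a common scale of library size, set by the method of trimmed means of M values (TMM), and a positive log2 fold change means higher in post. By edgeR's quasi-likelihood test with mold type as a covariate and Benjamini-Hochberg adjustment, 1102 of the 11730 genes passed an adjusted p of 0.05, which is 9.39% of those tested. Of these, 459 were higher in post (3.91% of the genes tested) and 643 were lower (5.48%).

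Among the genes that passed, the falls were the larger changes. The median log2 fold change was 0.32 among the 459 rises and -0.44 among the 643 falls, against -0.004 over all genes tested. The rises were also at a higher level, with a median of 58.8 CPM, against 33.9 CPM for the falls. Smaller changes can pass at higher counts, and the part of level in this difference was not tested. A change of at least 1 on the log2 scale was seen in 13 genes that rose and 47 that fell, and a change of at least 0.5 in 77 and 261. The values of all 6 post libraries lay on one side of all 6 middle libraries in 479 genes (4.08% of those tested), of which 417 had passed the test, 174 of them higher and 243 lower in post. Upper-quartile scaling, in place of TMM, gave 542 rises and 578 falls. The count of 1102 was 567 without unanchored middle library 2, 671 without anchored middle library 3, 697 without unanchored post library 3 and 1255 without anchored middle library 2.

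The region effect had the same sign in both mold types in all 1102 genes, judged by group means of log2(CPM + 0.5). The fit favours this in part, because an effect that differs between the molds adds to the residual spread. Over all genes tested 8263 (70.4%) had the same sign. Fitted alone, anchored tissue gave 106 genes past the threshold (0.904% of those tested), 6 higher and 100 lower in post, and unanchored tissue gave 192 (1.64%), 70 higher and 122 lower. They shared 65 genes, 61.3% of the anchored list and 33.9% of the unanchored list, all in the same direction. All 106 anchored calls had the same sign in unanchored tissue, 99 of them with an unadjusted p under 0.05, and 190 of the 192 unanchored calls had the same sign in anchored tissue, 155 of them with an unadjusted p under 0.05. The 2 fits share no library, and their log2 fold changes correlated across genes at Pearson r = 0.557 and Spearman rho = 0.538. Genes are not independent replicates, so no p is given. Of the 1102 genes, 876 passed in neither mold type alone.

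**Figure D1:**
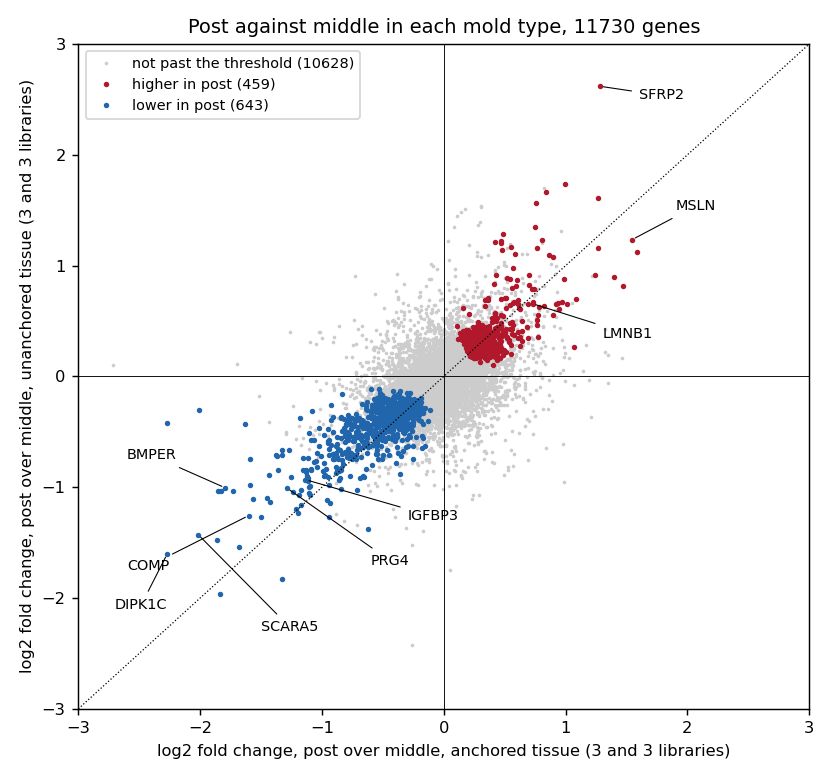
Log2 fold change of post over middle in anchored tissue (x axis) against that in unanchored tissue (y axis), each from its own fit to 3 post and 3 middle libraries, with 1 point per gene. Red points are the 459 genes higher and blue points the 643 genes lower in post over both mold types, and they lie to the upper right and the lower left.

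No gene passed the test for a region effect that differs between mold types. The interaction of region and mold type passed the adjusted threshold in 0 genes with edgeR, DESeq2 or limma voom, and 199 genes (1.70%) had an unadjusted p under 0.05 with edgeR. Anchored against unanchored tissue, over both regions, also gave 0 genes with all 3 tools, with 681 (5.81%) at an unadjusted p under 0.05 with edgeR. A p that misses the threshold does not show that the regions differ alike in the 2 molds. With no filter on low counts, edgeR gave 3 genes for the interaction and 79 for mold type.

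Among the genes whose 6 post values did not overlap the 6 middle values and whose mean was at least 10 CPM in post or in middle libraries, the 12 largest falls and 12 largest rises were taken by rule. The fall of IGFBP3, which binds insulin-like growth factors outside the cell, had the smallest adjusted p of all genes. Its level was 510 CPM in the lowest, 594 at the median and 786 CPM in the highest post library, against 1142, 1276 and 1440 CPM in middle libraries. The log2 fold change was -1.03 ± 0.080 (SE, adjusted p = 2.16e-07), with -1.14 in anchored and -0.93 in unanchored tissue. The 3 anchored post libraries were the lowest of the 6.

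Several of these genes were low in absolute level. SCARA5, a scavenger receptor that takes up ferritin, had 2.41, 3.09 and 6.70 CPM in the lowest, median and highest post library, against 9.80, 12.0 and 14.6 CPM in middle libraries (log2 fold change -1.69 ± 0.180, adjusted p = 1.60e-05). DIPK1C changed most within the rule: post libraries had 2.22, 3.08 and 4.73 CPM and middle libraries 9.14, 11.7 and 20.3 CPM (log2 fold change -1.91 ± 0.206, adjusted p = 1.60e-05). CCN5, a member of the matricellular CCN family that lacks the C-terminal domain of its relatives, had 4.71, 5.20 and 8.67 CPM in post libraries, against 12.2, 14.9 and 21.1 CPM in middle libraries (log2 fold change -1.37 ± 0.152, adjusted p = 2.28e-05). These 3 genes reached the 10 CPM limit through the middle libraries alone. So did HSD11B2, HP and SERPING1, the last with means of 6.91 CPM in post and 14.1 CPM in middle libraries. For SCARA5 and CCN5 the post values closest to the middle came from unanchored tissue.

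HSD11B2, the enzyme that turns cortisol into inactive cortisone, averaged 5.73 ± 1.68 CPM in post and 14.8 ± 2.73 CPM in middle libraries (log2 fold change -1.37 ± 0.169, adjusted p = 4.72e-05). The haemoglobin-binding protein HP averaged 6.86 ± 1.17 CPM in post and 16.8 ± 2.60 CPM in middle libraries (log2 fold change -1.27). The pentraxin NPTX1 (-1.27), the fibrinogen-related FGL2 (-1.16) and SERPING1, the inhibitor of complement C1 (-1.04), completed the falls together with COMP, PRG4 and CHAD, which are described with the matrix.

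The 12 largest rises at that level were between 0.44 and 0.69 on the log2 scale, and some genes of lower level rose more without overlap, such as SFRP2 (1.97) and MSLN (1.40). LMNB1, which encodes lamin B1 of the nuclear lamina, had 13.3, 14.7 and 15.7 CPM in the lowest, median and highest post library, against 7.45, 8.75 and 10.7 CPM in middle libraries (log2 fold change 0.69 ± 0.111, adjusted p = 0.000596). It reached the 10 CPM limit through the post libraries alone. TXN, the small redox protein thioredoxin, had 1681, 1833 and 2401 CPM in post libraries and 1309, 1391 and 1580 CPM in middle libraries (log2 fold change 0.45 ± 0.087, adjusted p = 0.00291). MPC1, a subunit of the mitochondrial pyruvate carrier, averaged 311 ± 32.3 CPM in post and 223 ± 36.8 CPM in middle libraries (log2 fold change 0.48).

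The other rises were CTH, which makes cysteine from cystathionine (0.50), CKS1B, a partner of cyclin-dependent kinases (0.49), the kinase RPS6KA3 (0.49), the transport adaptor FEZ1 (0.47), the plasminogen receptor PLGRKT (0.45), the ubiquitin-binding PLAA (0.45), the adaptor STAC (0.44), BLOC1S2 of the lysosome-organelle complex BLOC-1 (0.44) and FTH1 (0.44). All of the counts of FTH1 were in values that are not whole, as when reads that fit several genes are shared among them, so its level is uncertain. STAC no longer passed without anchored post library 2 (adjusted p = 0.0604), unanchored post library 3 (0.0754) or unanchored middle library 2 (0.0627), whereas the other 23 of the 24 genes passed under each alternative in which they were tested. CTH, PLGRKT, TXN, FTH1 and PRG4 were not tested where genes with mostly non-whole counts were left out.

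**Figure D2:**
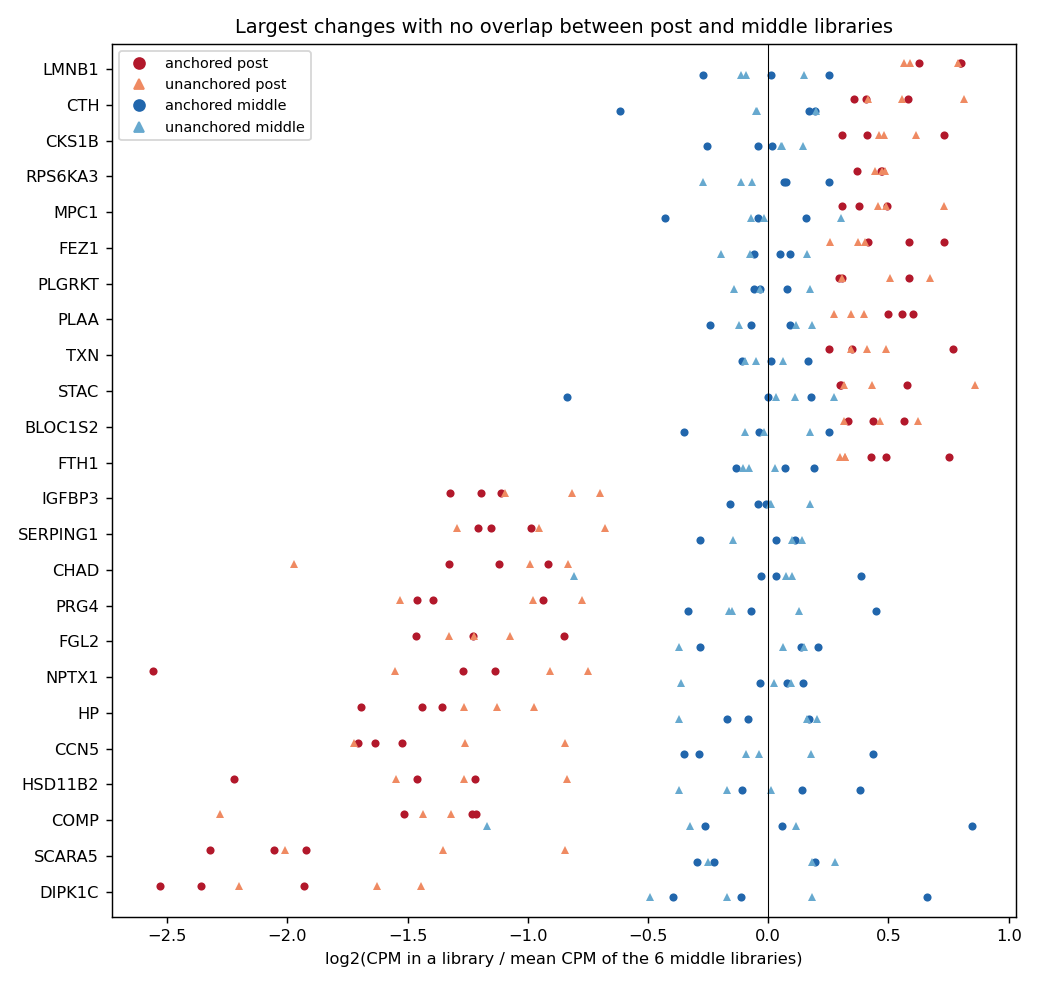
Level of the 12 genes with the largest rises and the 12 with the largest falls, among genes with a mean of at least 10 CPM in post or middle libraries and no overlap, in each of the 12 libraries, as log2 of CPM over the mean of the 6 middle libraries; each gene has its post libraries (red) drawn above its middle libraries (blue), with circles for anchored and triangles for unanchored tissue. Red and blue points do not overlap in any row, as the rule required, and the falls span a wider range than the rises.

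Most of the cartilage matrix genes tested fell. Of 11 tested proteoglycans and glycoproteins of cartilage, 8 (72.7%) fell and none rose, against 5.48% of all genes that fell, and the list's median log2 fold change was -0.59. COMP, a pentameric glycoprotein that binds collagen fibrils, had 372, 696 and 778 CPM in the lowest, median and highest post library, against 804, 1691 and 3252 CPM in middle libraries (log2 fold change -1.43 ± 0.198, adjusted p = 0.000139). PRG4 had 94.3, 121 and 159 CPM in post libraries and 216, 252 and 372 CPM in middle libraries (log2 fold change -1.14 ± 0.131, adjusted p = 3.28e-05). In both genes the highest middle value was that of anchored middle library 2, and without that library the log2 fold changes were -1.24 for COMP and -1.03 for PRG4.

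Lubricin reads are uncertain too, since 77.4% of the counts of PRG4 were in values that are not whole. The large proteoglycan ACAN averaged 84.4 ± 22.8 CPM in post and 172 ± 56.6 CPM in middle libraries (log2 fold change -1.0 ± 0.186, adjusted p = 0.00209). Its groups overlapped, because unanchored middle library 3 had 85.8 CPM, within the post range. The cell-binding protein CHAD (-1.14) and the intermediate layer protein CILP (-0.73) also fell. Other members that fell, chosen after their values were seen, were HAPLN1 (-0.59), which links aggrecan to hyaluronan, and CILP2 (-0.58).

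COL2A1, the type II collagen of cartilage, did not pass the test over all 12 libraries. Post libraries had 19.7, 63.6 and 79.5 CPM and middle libraries 30.9, 87.5 and 279 CPM (log2 fold change -0.82 ± 0.287, adjusted p = 0.0766). The value of 279 CPM was anchored middle library 2, and no other library exceeded 106 CPM. When that library was left out, the log2 fold change of COL2A1 was smaller, at -0.48 (adjusted p = 0.154). COL2A1 passed without unanchored post library 2 (-0.98, adjusted p = 0.0461), without unanchored middle library 3 (adjusted p = 0.0179) or with no filter on low counts (1.74e-21). The fit with no filter took in 21008 genes and left the log2 fold change of COL2A1 almost as it was, at -0.825. That p therefore does not reflect a larger difference, and why it was so much lower was not tested. Of the 5 cartilage collagens tested, 2 fell (40%, against 5.48% of all genes) and none rose. They were COL11A1 (-0.48 ± 0.091, adjusted p = 0.00236) and, at a few CPM, COL9A2 (-1.0, adjusted p = 0.0374). The call of COL9A2 was lost in 7 of the 12 fits that left out 1 library (adjusted p from 0.0586 to 0.101 without any of the anchored post libraries, unanchored post library 3, anchored middle library 3 or unanchored middle library 1 or 2). SOX9 differed by -0.05 ± 0.071 (adjusted p = 0.710). TRPS1, a GATA-type repressor of the growth plate, fell with no overlap, at 140 ± 11.8 CPM in post and 236 ± 48.9 CPM in middle libraries (log2 fold change -0.75 ± 0.099, adjusted p = 9.13e-05).

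Fibrous collagens fell as well. Of the 6 fibrillar collagens of fibrous tissue, 4 fell (66.7%, against 5.48% of all genes) and none rose. COL3A1 had 1684, 2433 and 2741 CPM in the lowest, median and highest post library, against 2580, 3854 and 4151 CPM in middle libraries (log2 fold change -0.66 ± 0.115, adjusted p = 0.00117). COL1A1 had 6099, 9297 and 11046 CPM in post libraries and 8605, 13868 and 15513 CPM in middle libraries (log2 fold change -0.59 ± 0.139, adjusted p = 0.0101). In both, the overlap came from unanchored middle library 3, the lowest middle library, and unanchored post library 3 was the lowest of the post libraries.

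COL5A2, which helps set fibril diameter, separated the regions fully, at 1692 to 2205 CPM in post and 2350 to 3056 CPM in middle libraries (log2 fold change -0.55 ± 0.086, adjusted p = 0.000492). The partner chain COL1A2 fell by 0.40 on the log2 scale (adjusted p = 0.0156), a call lost without unanchored middle library 2 (adjusted p = 0.0646). The fibril-associated COL16A1 fell by 0.56 on the log2 scale. FN1, the fibronectin that cells assemble before collagen, had a log2 fold change of -0.24 ± 0.100 and did not pass (adjusted p = 0.137). With no filter on low counts FN1 passed (adjusted p = 0.0442) at almost the same log2 fold change, -0.25.

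**Figure D3:**
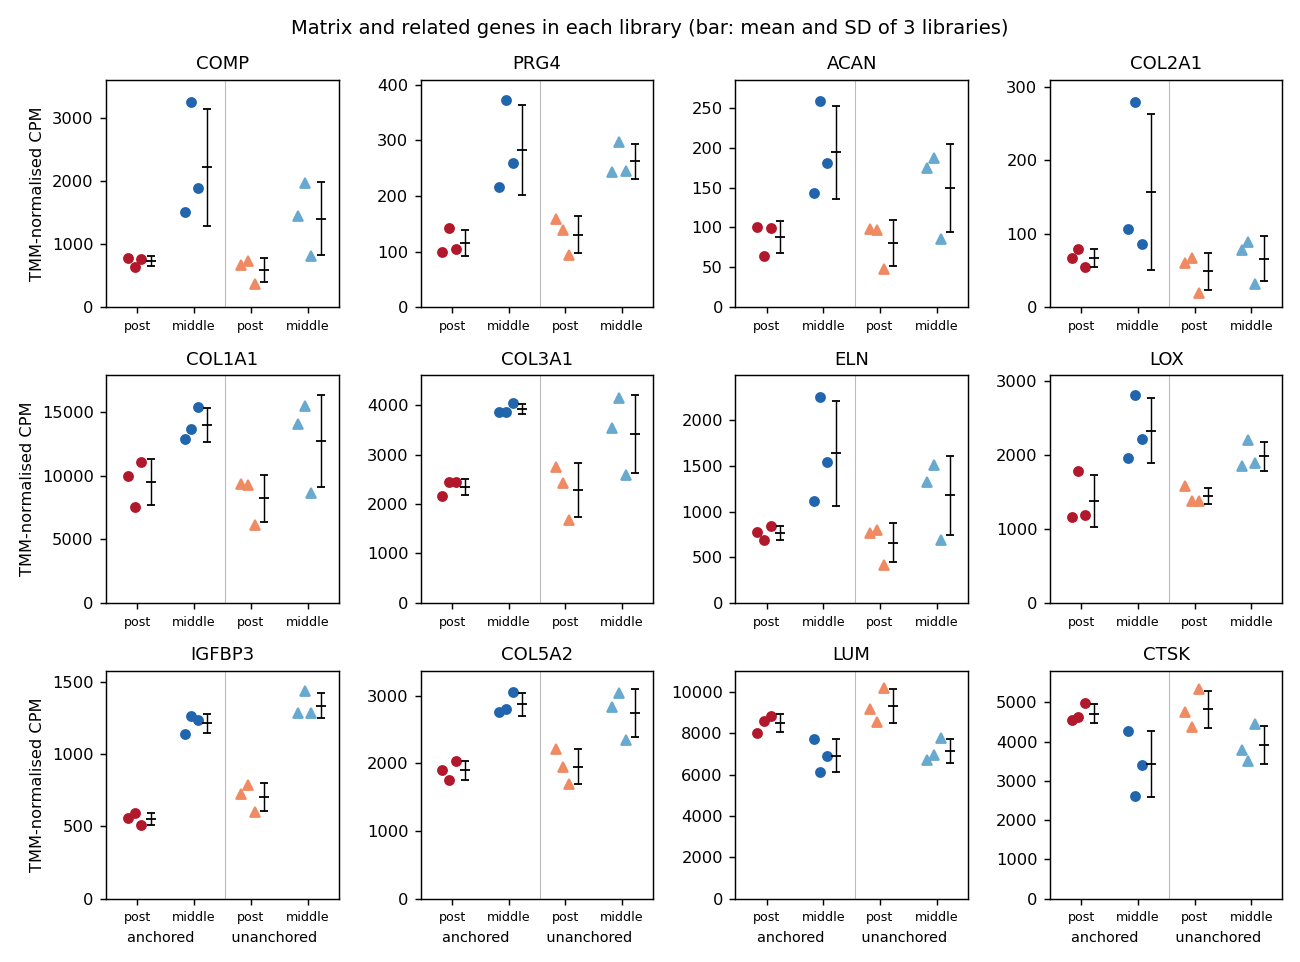
TMM-normalised CPM of 12 matrix and related genes in each library, with post to the left of middle within anchored (circles) and unanchored (triangles) tissue; black marks give the mean and SD of 3 libraries. COMP, PRG4, LOX, IGFBP3, COL5A2 and LUM show no overlap between the 6 post and 6 middle libraries, anchored middle library 2 is the high point of COMP, ELN and COL2A1, and COL2A1 did not pass the test.

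Collagen-processing enzymes followed the same direction: 11 of 31 tested members (35.5%, against 5.48% of all genes) fell and none rose. The 11 falls became 8 without unanchored post library 3. LOX, the lysyl oxidase that crosslinks collagen and elastin, had 1168, 1384 and 1783 CPM in post libraries and 1849, 2080 and 2816 CPM in middle libraries (log2 fold change -0.60 ± 0.112, adjusted p = 0.00208). Its relatives LOXL2 (-0.46) and LOXL4 (-0.47), the procollagen N-proteinase ADAMTS2 (-0.45) and P4HB, a subunit of collagen prolyl hydroxylase (-0.42), fell too. In LOX, LOXL2, ADAMTS2 and P4HB all post libraries were below all middle libraries.

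Elastic fibre genes fell in 8 of 17 tested members (47.1%, against 5.48% of all genes), with none higher. Elastin itself, ELN, had 417, 775 and 838 CPM in the lowest, median and highest post library, against 692, 1422 and 2259 CPM in middle libraries (log2 fold change -0.96 ± 0.180, adjusted p = 0.00229). FBN2, a microfibril protein, averaged 70.5 ± 13.6 CPM in post and 117 ± 27.0 CPM in middle libraries (log2 fold change -0.73), and MFAP4 (-0.62) and FBLN5 (-0.57) fell with it. The count of 8 became 5 without unanchored post library 3, unanchored middle library 1 or unanchored middle library 2.

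Laminins and their basement membrane partners fell in 9 of 13 tested members (69.2%, against 5.48% of all genes), and none rose. The 9 falls became 6 without unanchored middle library 2. SMOC2, a secreted calcium-binding protein, had 27.7, 62.6 and 85.4 CPM in post libraries and 62.0, 139 and 235 CPM in middle libraries (log2 fold change -1.20 ± 0.203, adjusted p = 0.000981). The laminin chains LAMA2 (-0.50) and LAMC1 (-0.41) and nidogen NID1 (-0.41), which bridges laminin and type IV collagen, also fell.

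Small leucine-rich proteoglycans did not all move one way. Of 13 tested, 5 fell and 1 rose (46.2% passed, against 9.39% of all genes). FMOD, fibromodulin, which steers collagen crosslinking, had 2000, 2514 and 2772 CPM in post libraries and 2970, 3370 and 3643 CPM in middle libraries (log2 fold change -0.45 ± 0.088, adjusted p = 0.00291). LUM, lumican, was the member that rose, with 8006, 8739 and 10188 CPM in post libraries and 6154, 6922 and 7796 CPM in middle libraries (log2 fold change 0.34 ± 0.088, adjusted p = 0.0194). Both genes separated the regions without overlap, in opposite directions. The rise of LUM was lost without unanchored post library 3 (adjusted p = 0.0617), unanchored middle library 1 (0.0513) or unanchored middle library 2 (0.0651), and the 5 falls became 2 without unanchored middle library 2 and 3 without anchored middle library 3. DCN, decorin, did not pass (log2 fold change -0.12, adjusted p = 0.348).

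Of 31 tested genes listed for glycosaminoglycan and hyaluronan synthesis, 4 fell (12.9%, against 5.48% of all genes) and none rose. XYLT1, the xylosyltransferase that starts chondroitin and heparan sulfate chains, averaged 132 ± 10.0 CPM in post and 183 ± 13.8 CPM in middle libraries (log2 fold change -0.48 ± 0.070, adjusted p = 0.000227). The chondroitin polymerising factor CHPF fell by 0.36 on the log2 scale. Without anchored middle library 3 the 4 falls became 2. Among 28 matrix proteases and inhibitors, 3 fell, including the inhibitor TIMP4 (-0.83), and 1 rose (14.3% passed, against 9.39% of all genes). The one that rose was CTSK, a cathepsin that cuts collagen, at 4767 ± 340 CPM in post and 3672 ± 666 CPM in middle libraries (log2 fold change 0.38 ± 0.105, adjusted p = 0.0268). That call was lost without anchored post library 3 (adjusted p = 0.0548), unanchored post library 3 (0.0707), anchored middle library 3 (0.0639), unanchored middle library 1 (0.0527) or unanchored middle library 2 (0.0799). The gelatinase MMP2 did not pass (-0.12, adjusted p = 0.389).

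Tendon and matricellular genes fell in 9 of 20 tested members (45.0%, against 5.48% of all genes), and none rose. Without unanchored middle library 2 the count was 5. MGP, which inhibits mineralisation, averaged 483 ± 73.4 CPM in post and 748 ± 197 CPM in middle libraries (log2 fold change -0.62). FNDC1 (-0.61) and ECM1 (-0.93) also fell. The tendon transcription factors SCX and MKX did not pass, at log2 fold changes of -0.39 (adjusted p = 0.0709) and 0.14 (adjusted p = 0.316), nor did TNC, the tenascin of loaded tendon (0.18, adjusted p = 0.309). SCX passed without unanchored post library 2 (adjusted p = 0.0253), without unanchored middle library 3 (0.0224) or with no filter on low counts (0.0016). With no filter its log2 fold change was almost the same, at -0.40.

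**Figure D4:**
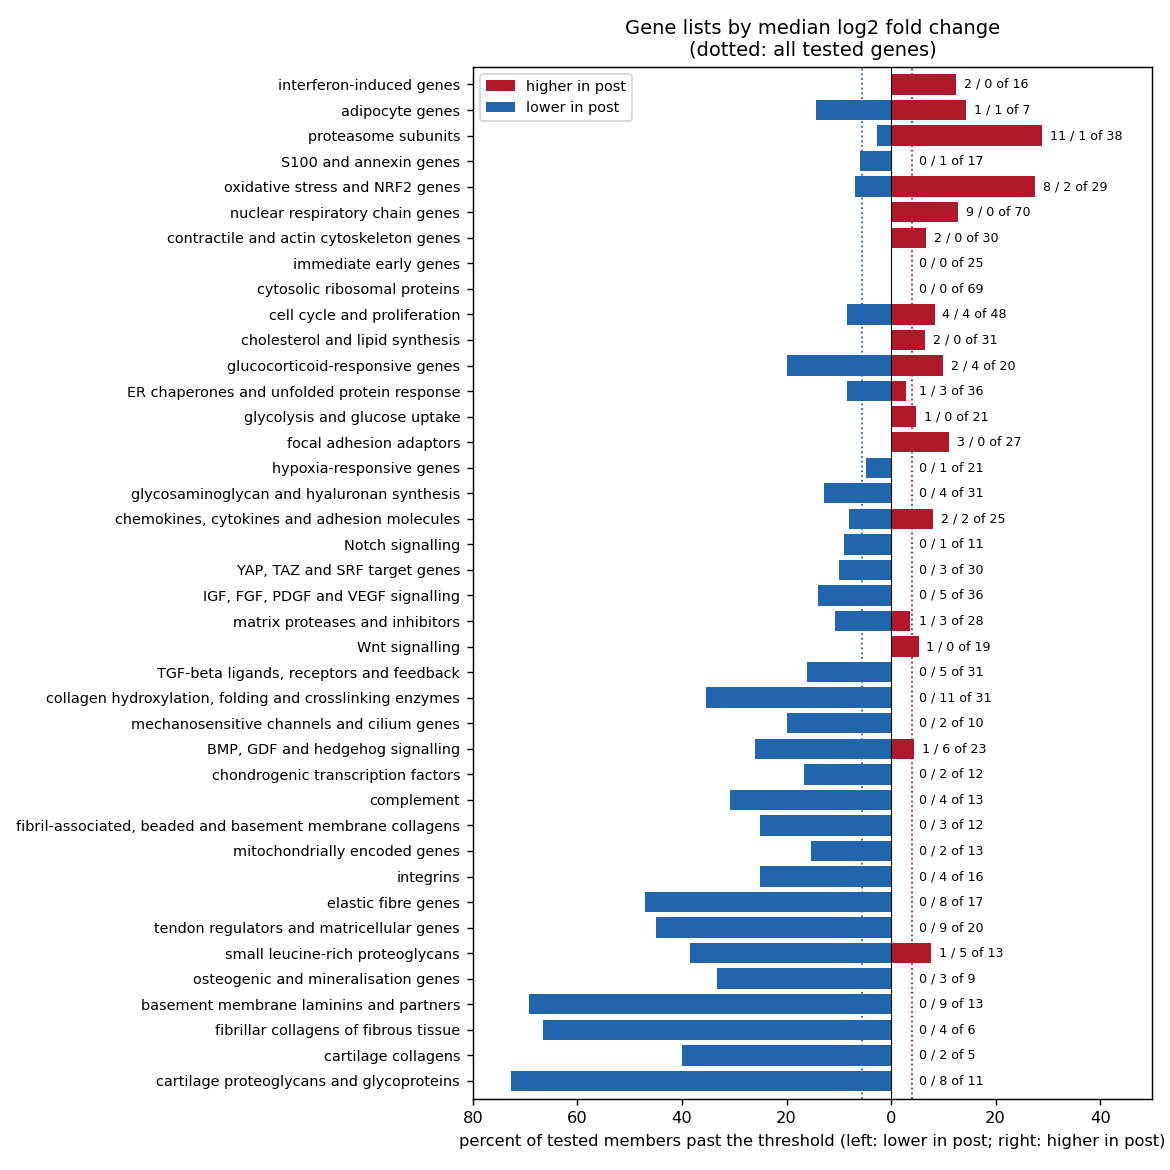
Percent of the tested members of each gene list with at least 5 tested members, leaving out the cell type marker and the liver and lung lists, that were higher in post (red, right of 0) or lower in post (blue, left of 0) at an adjusted p of 0.05, with the counts printed as higher / lower of tested; dotted lines mark 3.91% and 5.48%, the shares over all 11730 genes. Lists are ordered by median log2 fold change: the matrix lists at the bottom hold blue bars up to 72.7%, and, of the lists plotted, the proteasome and oxidative stress lists hold the longest red bars.

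Of 30 contractile and actin genes, 2 rose and none fell (6.67%, against 9.39% of all genes). ACTA2, the smooth-muscle actin of contractile fibroblasts, had 821, 1058 and 1334 CPM in the lowest, median and highest post library, against 738, 972 and 1297 CPM in middle libraries (log2 fold change 0.09 ± 0.097, adjusted p = 0.641). TAGLN (-0.03, adjusted p = 0.855) and CNN1 (0.32, adjusted p = 0.157) did not pass. Without anchored middle library 2, CNN1 passed (0.43, adjusted p = 0.0259) and the rises among the 30 genes numbered 5, whereas 1 or none passed in 9 of the other fits that left out 1 library.

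Among 30 targets of YAP, TAZ and SRF, IGFBP3, CCN5 and CCN3 (-0.52) fell (10.0%, against 5.48% of all genes), whereas CCN2 had 1722 to 2251 CPM in post and 1713 to 2095 CPM in middle libraries (log2 fold change 0.03 ± 0.081, adjusted p = 0.856) and CCN1 differed by -0.13 (adjusted p = 0.531). Among 16 integrins and collagen receptors 4 fell (25.0%, against 5.48% of all genes), among them ITGA10, a chondrocyte receptor for type II collagen (-0.47), and DDR2 (-0.25). Of the 4, 2 passed in each of 5 fits that left out 1 library (anchored post 2, unanchored post 3, anchored middle 3, unanchored middle 1 or unanchored middle 2). Of 10 channels and cilium genes, 2 fell (20%, against 5.48% of all genes). They were PKD1, at 50.2 ± 3.27 CPM in post and 83.7 ± 14.0 CPM in middle libraries (-0.72 ± 0.087, adjusted p = 4.61e-05), and the calcium channel TRPV4 (-0.86), which was low. None of 25 immediate early genes passed with edgeR, against 7 at an unadjusted p under 0.05, with 1 passing in DESeq2 and 0 in limma voom.

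In the TGF-β list 5 of 31 tested (16.1%, against 5.48% of all genes) fell and none rose. The 5 were INHBA, an activin subunit (-0.60 ± 0.125, adjusted p = 0.00455), the transducer SMAD3 (-0.56), the co-receptor TGFBR3 (-0.43), FSTL1 (-0.38) and TGFB3, named after its values were seen (-0.42). In the BMP and hedgehog list 6 of 23 fell and 1 rose (30.4% passed, against 9.39% of all genes). BMPER, a secreted BMP modulator, had 1.58, 3.42 and 6.70 CPM in post libraries and 6.23, 8.31 and 11.6 CPM in middle libraries (log2 fold change -1.33 ± 0.217, adjusted p = 0.000650), and GAS1 fell by 0.54 on the log2 scale. The 6 falls became 3 without unanchored middle library 2, and the 1 rise, that of the BMP antagonist GREM1 (0.24, named after its values were seen), was lost in 9 of the 12 fits that left out 1 library.

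SFRP2, a secreted Wnt antagonist, was the only one of 19 Wnt genes to pass in the 12-library fit (5.26%, against 9.39% of all genes). It had 2.22, 3.95 and 4.71 CPM in post libraries, against 0.351, 0.888 and 2.18 CPM in middle libraries (log2 fold change 1.97 ± 0.294, adjusted p = 0.000272), with 1.28 in anchored and 2.62 in unanchored tissue. The regions did not overlap, although the level was a few CPM throughout. Among growth factor genes 5 of 36 fell (13.9%, against 5.48% of all genes), including FGF2 (-0.45), and none rose. Without anchored post library 1, anchored middle library 3 or unanchored middle library 2, 3 falls were left. The Notch ligand JAG1 fell by 0.65 on the log2 scale, with 7.04 to 10.0 CPM in post and 11.4 to 15.1 CPM in middle libraries.

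Of 13 complement genes, 4 fell (30.8%, against 5.48% of all genes) and none rose. The 4 were SERPING1, C1R (-0.88), C1S (-0.53) and C1QTNF1, named after its values were seen (-0.59). C1S, a protease of the classical pathway, averaged 73.9 ± 6.95 CPM in post and 107 ± 13.7 CPM in middle libraries, with no overlap. CXCL12, the ligand of CXCR4, averaged 57.3 ± 4.80 CPM in post and 86.1 ± 10.8 CPM in middle libraries (log2 fold change -0.60 ± 0.081, adjusted p = 0.000107). Of the 25 chemokine, cytokine and adhesion genes tested it was 1 of 2 that fell, with the adhesion molecule VCAM1 (-0.88, adjusted p = 0.0186), whose call was lost without anchored middle library 3 (0.0681) or unanchored middle library 2 (0.0563). The other 2 that passed, the neutrophil attractants CXCL2 (0.78, adjusted p = 0.0240) and CXCL3 (0.88, adjusted p = 0.0260), rose. In all, 16% of the list passed, against 9.39% of all genes. Neither rise passed without anchored post library 3, unanchored post library 2, anchored middle library 1 or 3 or unanchored middle library 1 or 2. The call of CXCL2 was also lost without anchored post library 1 and that of CXCL3 without unanchored post library 3, with adjusted p from 0.0511 to 0.0801 over these fits, and CXCL2 did not pass in DESeq2 (0.119). Leukocyte and macrophage markers summed to 16.7 to 24.3 CPM of the library total in post and 17.9 to 21.8 CPM in middle libraries, and the macrophage marker C1QA had 0 counts in all 12 libraries.

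The proteasome is the complex that degrades ubiquitin-tagged proteins. Of 38 tested subunits 11 rose and 1 fell, against 3.91% of all genes that rose. A positive log2 fold change was seen in 31 of the 38 (median 0.16), against 5753 of all 11730 genes. PSMA2 had 259, 287 and 339 CPM in the lowest, median and highest post library, against 208, 226 and 252 CPM in middle libraries (log2 fold change 0.38 ± 0.073, adjusted p = 0.00252). PSMA1 (0.31) and PSMA5 (0.29) rose with no overlap as well. The summed level of the list was 7868 to 8811 CPM in post and 6967 to 7561 CPM in middle libraries, again with no overlap. The changes were small, and the 11 rises became 3 without unanchored middle library 2, 4 without anchored post library 2 or anchored middle library 3, 5 without unanchored post library 3 and 7 without unanchored post library 2 or unanchored middle library 1.

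Genes of the oxidative stress response rose in 8 of 29 tested members (27.6%, against 3.91% of all genes) and fell in 2. Besides TXN and FTH1, the thioredoxin reductase TXNRD1 averaged 102 ± 8.90 CPM in post and 76.8 ± 6.11 CPM in middle libraries (log2 fold change 0.39 ± 0.070, adjusted p = 0.00144), and the ferritin light chain FTL rose by 0.44 on the log2 scale, with all of its counts in values that are not whole. The members that fell are both secreted selenoproteins. GPX3, a plasma glutathione peroxidase, averaged 162 ± 26.2 CPM in post and 285 ± 81.4 CPM in middle libraries (log2 fold change -0.80 ± 0.137, adjusted p = 0.00103), and SELENOP, which transports selenium, had 164 to 228 CPM in post and 267 to 292 CPM in middle libraries (log2 fold change -0.49). The metallothionein MT1A rose to 134 ± 29.7 CPM in post, against 82.1 ± 15.9 CPM in middle libraries (log2 fold change 0.71 ± 0.096, adjusted p = 0.000109). Values that are not whole held 68.5% of its counts.

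Some nuclear genes of the respiratory chain rose, and some mitochondrially encoded ones fell. Of 70 nuclear genes 9 rose (12.9%, against 3.91% of all genes) and none fell. A positive log2 fold change was seen in 58 of the 70, against 5753 of all 11730 genes. Among those that rose were the ATP synthase subunit ATP5PB (0.33 ± 0.069, adjusted p = 0.00502), NDUFB6 of complex I (0.33) and SDHC of complex II (0.28). Of 13 mitochondrially encoded mRNAs 2 fell (15.4%, against 5.48% of all genes) and none rose: COX1 (-0.41 ± 0.090, adjusted p = 0.00697) and MT-ND2 (-0.46, adjusted p = 0.0107). A mitochondrial tRNA gene outside this list, chosen after its values were seen, also fell (-1.67, adjusted p = 4.3e-05). Without anchored post library 2, unanchored post library 1 or 3, anchored middle library 3 or unanchored middle library 1 or 2, the 9 rises became 3. Mitochondrial mRNAs took 1.79% ± 0.179 of the counts in post and 2.14% ± 0.223 in middle libraries (exact permutation test within mold types, two-sided p = 0.015, adjusted p = 0.115 over 23 library measures).

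Cell division genes did not rise or fall as a group. Of 48 tested, 4 rose, including the histone variant H2AZ1 (0.34) and STMN1 (0.32), and 4 fell (16.7% passed, against 9.39% of all genes). The cyclin-dependent kinase inhibitor CDKN1C averaged 108 ± 21.4 CPM in post and 174 ± 31.1 CPM in middle libraries (log2 fold change -0.68 ± 0.124, adjusted p = 0.00194), and CENPF of the kinetochore fell by 0.75 on the log2 scale. The proliferation marker MKI67 was at 2.41 to 8.31 CPM in post and 4.92 to 8.51 CPM in middle libraries (adjusted p = 0.797). The 4 falls were 2 without unanchored middle library 2. No cytosolic ribosomal protein gene passed among 69 with edgeR, DESeq2 or limma voom (1 at an unadjusted p under 0.05 with edgeR), and 2 passed with edgeR without anchored middle library 2.

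Noncoding RNAs were unevenly represented. Of 654 long noncoding RNAs tested, 77 fell (11.8%) and 9 rose (1.38%), with a median log2 fold change of -0.135, whereas of 10963 protein-coding genes 561 fell (5.12%) and 441 rose (4.02%). Their summed share of the counts was 1.88% ± 0.150 in post and 1.93% ± 0.089 in middle libraries (exact permutation test, two-sided p = 0.490, adjusted p = 0.712 over 23 measures).

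Other measures of the libraries were compared beside these genes. AFP, a protein of fetal liver and yolk sac, rose by 0.68 ± 0.210 on the log2 scale (adjusted p = 0.0443), with 43.2, 58.6 and 83.3 CPM in the lowest, median and highest post library and 22.8, 35.8 and 83.1 CPM in middle libraries. The regions overlapped, because anchored middle library 2 had 83.1 CPM, and without that library the log2 fold change was 0.93 (adjusted p = 0.000341). The call held without anchored post library 2, anchored middle library 2 or unanchored middle library 3 and was lost in the other 9 fits that left out 1 library (adjusted p from 0.0577 to 0.121) and in DESeq2 (0.211). SFTPC, a surfactant protein of lung, rose by 0.77 ± 0.221 on the log2 scale (adjusted p = 0.0321), or 0.96 (adjusted p = 0.00193) without anchored middle library 2. That call was lost in 7 fits that left out 1 library (anchored post 1 or 3, unanchored post 2, anchored middle 1 or 3, unanchored middle 1 or 2; adjusted p from 0.0622 to 0.0888). All 6 tested liver and lung transcripts had a positive log2 fold change, against 5753 of all 11730 genes. Of the 6, 2 rose (33.3%, against 3.91% of all genes). The 12 liver and lung transcripts summed to 105 to 163 CPM of the library total in post and 75.1 to 172 in middle libraries. Albumin, encoded by ALB, did not pass (0.43, adjusted p = 0.308), but did without anchored middle library 2 (0.69, adjusted p = 0.0225). Of 23 library measures none passed after adjustment over them (lowest adjusted p = 0.115, exact permutation). The lowest p that the 400 arrangements allow is 0.005, which adjusts to 0.115 when 1 measure alone reaches it. A single measure therefore could not pass, however large its difference. Mitochondrial tRNA genes took 0.00337% ± 0.000328 of the counts in post and 0.00534% ± 0.00107 in middle libraries (two-sided exact permutation p = 0.005, adjusted p = 0.115), with 0.00285 to 0.00383% against 0.00408 to 0.00730%. Ribosomal RNA genes took 0.113% ± 0.089 of the counts in post and 0.0445% ± 0.016 in middle libraries (two-sided exact permutation p = 0.015, adjusted p = 0.115), with 0.291% in unanchored post library 2 and at most 0.0944% in the other post libraries. Values that are not whole took 46.3% ± 1.32 in post and 44.2% ± 1.52 in middle libraries (two-sided exact permutation p = 0.045, adjusted p = 0.259). Such values made up 90.7% of the counts of PSMA2, 90.6% of STMN1, 90.0% of ACTA2, 82.0% of LAMC1, 69.5% of CTSK, 60.2% of TXN, 59.2% of COL1A1 and 57.7% of FMOD. The part of AFP, SFTPC, ribosomal RNA, mitochondrial RNA and shared reads in the gene results was not tested. With genes left out whose counts were mostly in values that are not whole, 877 genes passed, 356 higher and 521 lower in post.

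**Figure D5:**
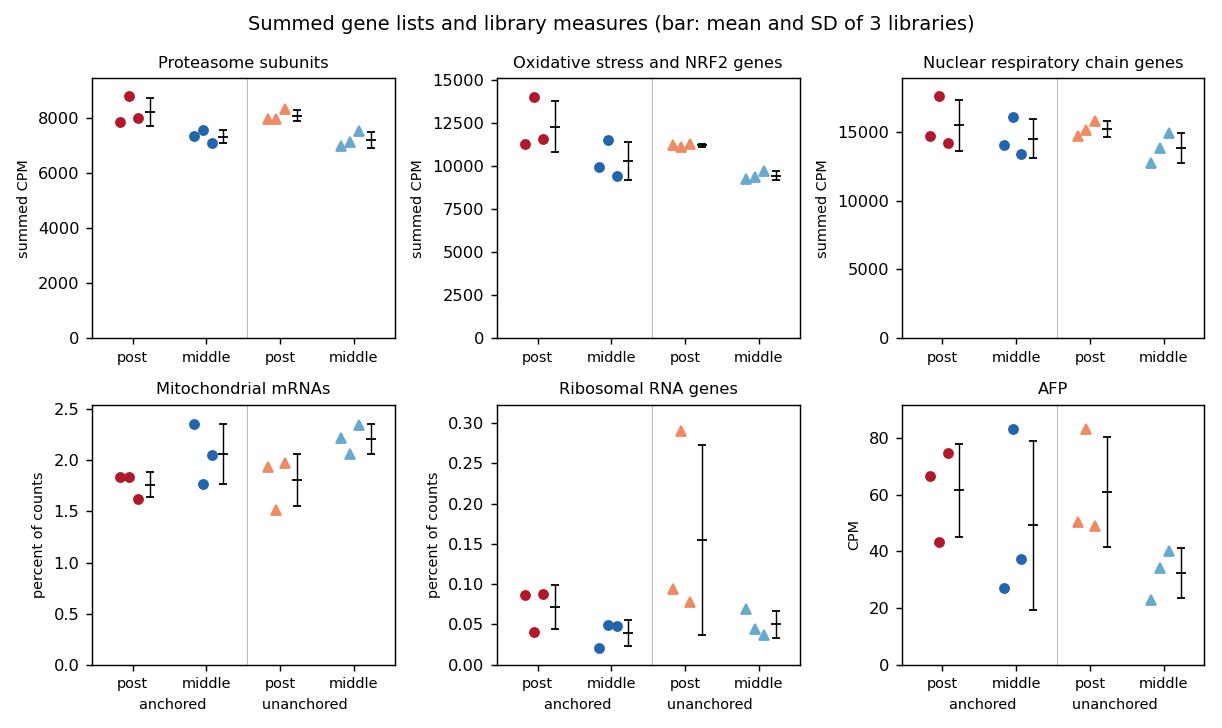
Summed CPM of 3 gene lists, shares of counts and AFP in each library, with post to the left of middle within anchored (circles) and unanchored (triangles) tissue; black marks give the mean and SD of 3 libraries. The proteasome sum separates the 6 post from the 6 middle libraries, whereas anchored middle library 2 lies within or beside the post values for oxidative stress genes, mitochondrial mRNAs and AFP.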

How the data were processed

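RNA of bovine meniscal tissues was captured by its poly-A tails with barcoded primers, tagmented and sequenced, per the labels' protocols. Reads were processed with STAR 2.7, SAMtools 1.21, featureCounts of Subread 2.1.1 and MultiQC 1.33, per the submitters' processing notes. Genome build, annotation, strand setting and use of molecular identifiers were not given in the sources used here, so overlapping and antisense genes cannot be told apart. The authors deposited a table of 38093 rows (38001 genes and 92 spike-ins) with an expected count, which need not be whole, and a CPM value for each of the 15 libraries. Only the deposited expected counts were tested, and the deposited CPM values were not used in any test. Values that are not whole made up 41.5 to 47.4% of a library's counts.

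Expected counts of the 12 molded libraries were rounded to whole numbers and spike-ins left out. Genes were kept by filterByExpr (count 10, total 15) on the 4 groups and scaled by TMM (factors 0.925 to 1.04). Region was tested with mold type as a covariate by edgeR 4.0.16 quasi-likelihood in R 4.3.3, with Benjamini-Hochberg adjustment at 0.05. The standard error printed beside a fold change was taken from the fold change and its test statistic. DESeq2 1.42.0, limma 3.58.1 voom, other scalings, filters and designs, and leaving out each library, were alternatives. Per-library shares were compared by exact permutation of the region labels within mold type. The fit was also run on simulated counts with known changes, and the result of that run is not given here.

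Genes were named by a rule: the 12 largest rises and falls among genes with no overlap and at least 10 CPM, up to 4 members of each list that passed and 3 that did not, and a panel of 20 genes. Names outside it are said to be chosen after their values were seen. The members and lists were chosen with earlier results of these data known, so a list's count is not independent evidence of its direction. Depth per library is given as the total count. No sequences were used. The 3 libraries without a mold entered only as 1 alternative.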

Additional observations from a re-analysis of the deposited data

Results flagged for a closer look

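Each of the 57 genes with printed library values, and 8 library measures, was checked within the 6 post and within the 6 middle libraries for a library that stood far from the rest, by Dixon's gap test, which flags about 1 group in 20 by chance. In all, 10 of 130 groups stood out. Anchored middle library 2 was the one apart in 4 of them: STAC had 15.6 CPM there, against 27.9 to 33.7 CPM in the other middle libraries, COL2A1 had 279 CPM, against 30.9 to 106 CPM, and AFP had 83.1 CPM, against 22.8 to 40.2 CPM. On the scale of the library total, AFP stood at 76.7 CPM in that library, against 23.7 to 40.4 CPM.

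Unanchored post library 3 was the lowest for COMP, with 372 CPM against 633 to 778 CPM in the other post libraries, for ELN, with 417 CPM against 689 to 838 CPM, and for CCN1, with 305 CPM against 450 to 524 CPM. TXNRD1 had 119 CPM in anchored post library 2, against 94.3 to 101 CPM in the other post libraries. Mitochondrial ribosomal RNA took 1.28% of the counts in anchored post library 2, against 1.95 to 2.09% in the other post libraries. Ribosomal RNA genes took 0.291% in unanchored post library 2, against 0.0402 to 0.0944%. Spike-in transcripts, which took no part in any comparison, had 514 counts over the 12 libraries, 26 to 70 in each.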

How the results depend on the processing

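The count of 1102 genes was 567 to 1255 when each library was left out in turn, as was the count with 1 sign in both molds, which was 670 without anchored middle library 3. For the separate fits these ranges were 12 to 187 in anchored and 24 to 673 in unanchored tissue. Interaction and mold type stayed at 0 in those fits, and with no filter on low counts they gave 3 and 79. With a spread shared by all 12 libraries, anchored tissue gave 192 genes and unanchored tissue 32. The other alternatives, apart from the replicate block, gave 877 to 1289 genes for the pooled comparison. Of 133 named genes that passed, 94 passed in every setting in which they were tested (24 or 25), and none of the 133 changed sign. The cause of these shifts was not tested.

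Replicate numbers are shared by the groups, but the labels do not say that they mark pairs, and the main test took none. Same-numbered post and middle libraries had deviations correlated by -0.0269, 0.0745 and 0.135 in anchored and 0.0943, 0.11 and 0.269 in unanchored tissue. Libraries of different number gave -0.156 to 0.0599 in anchored and -0.176 to 0.0664 in unanchored tissue. Apart from -0.0269, each same-numbered value was above these ranges. Whether the numbers mark pairs is therefore not settled. With a replicate block, 1565 genes passed, 1096 of them among the 1102, with 178 in anchored and 1148 in unanchored tissue and 0 for the interaction. COL2A1 (adjusted p = 0.00042), SCX (0.00334), FN1 (0.00299) and CNN1 (0.0229), which did not pass without the block, passed with it. Totals of 2986940 to 7415700 counts limit genes of a few CPM, where 1 library holds few counts.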

Other observations

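Genes outside the lists, all chosen after their values were seen, also differed by region. MSLN, the surface protein mesothelin, had 4.36, 6.39 and 8.54 CPM in the lowest, median and highest post library, against 1.71, 2.14 and 3.12 CPM in middle libraries (log2 fold change 1.40 ± 0.176, edgeR adjusted p = 5.78e-05). PTX3, a secreted pentraxin of the innate immune response, averaged 14.0 ± 2.20 CPM in post and 8.28 ± 2.12 CPM in middle libraries (log2 fold change 0.81). The other genes given here were lower in post.

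CHI3L1, a secreted chitinase-like protein of chondrocytes and macrophages, averaged 76.0 ± 25.6 CPM in post and 162 ± 41.1 CPM in middle libraries (log2 fold change -1.09). GSN, the actin-severing protein gelsolin, had 2862 to 3521 CPM in post and 4098 to 5282 CPM in middle libraries (log2 fold change -0.55). The matrix proteins ADAMTSL4 (-0.88) and ABI3BP (-0.79), the receptor CALCRL (-0.96) and the guidance factor SEMA3C (-0.54) were lower too.

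The Golgi protein GOLGB1 averaged 52.2 ± 6.71 CPM in post and 82.3 ± 10.5 CPM in middle libraries (log2 fold change -0.64). The anchoring protein AKAP9 (-0.77), ANKRD12 (-0.75), GOLGA4 (-0.60), the DNA polymerase subunit REV3L (-0.64), the cohesin loader NIPBL (-0.47) and the chromatin remodeller ATRX (-0.59) were lower as well.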
